A study of Homo sapiens with 6 samples.

Results

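BCL6 encodes a transcriptional repressor, BCOR a corepressor of BCL6, and BCORL1 the paralogue of BCOR. These genes are here 3 loci in a TLE3 ChIP-seq data set from MDA-MB-453. ChIP-seq maps where a protein sits on chromatin, and MDA-MB-453 is a human breast cancer line that expresses the androgen receptor. The genes were chosen by their TLE3 peaks in these same lists, BCOR having more control-only regions than any other gene, so their counts are a description with no test. Peaks of the 4 ChIP libraries that shared at least 1 bp were merged into 72272 regions, and a region was given to a gene when it lay in the gene's span, or when that gene was the nearest protein-coding gene within 100 kb. This gave 58 regions, of which 39 belonged to BCOR, 7 to BCORL1 and 12 to BCL6. The groups were 2 libraries from cells with a transient siFOXA1 knockdown, against the forkhead pioneer factor FOXA1, and 2 from siNS cells, in which FOXA1 was not silenced. All 4 used the same line, the same TLE3 antibody and a second cross-linker before formaldehyde, and the titles number them as biological replicates. The 2 input libraries, whose labels name another line, MDA-MB-454, were not analysed here.

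TLE3 is a corepressor of the Groucho family that has no DNA-binding domain of its own and is recruited by transcription factors. BCL6 is a BTB zinc finger repressor best known from germinal centre B cells, and it is also expressed in mammary epithelium. BCOR was found as a corepressor that binds the BTB domain of BCL6, and it is a core subunit of PRC1.1, a variant Polycomb complex that carries the histone H2A ubiquitin ligase activity of RING1 proteins. BCORL1 is the paralogue of BCOR, also X-linked, and can take its place in PRC1.1. The series asks whether TLE3 binding requires FOXA1, and at these loci the comparison is which control TLE3 regions still had a peak after FOXA1 silencing.

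RefSeq (GRCh38.p14) lists 2 start sites for each gene, and the 250 bases before each start were set against the peaks. Of these 6 windows, 5 overlapped a siNS consensus region, meaning a merged region with a peak of both siNS libraries, and none overlapped a siFOXA1 peak. Of 22199 promoter windows of protein-coding genes, 50.6% overlapped such a region and 1.72% overlapped a siFOXA1 peak. All these overlaps count the window together with the 50 bases after the start. The following 5 sequences are shown because 4 are promoter sequence under TLE3 peaks and the last, at the inner BCL6 start, is a contrast with no peak. They run 5′ to 3′ on the gene's own strand and ending 1 base before the start. Capitals mark matches to the motifs given after them.
BCOR outer start, chrX:40177278-40177527, minus strand: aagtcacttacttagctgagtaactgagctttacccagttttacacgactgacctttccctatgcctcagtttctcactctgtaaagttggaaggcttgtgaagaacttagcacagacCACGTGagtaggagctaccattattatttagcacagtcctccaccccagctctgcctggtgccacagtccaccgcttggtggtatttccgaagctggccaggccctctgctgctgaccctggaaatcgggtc
BCOR inner start, chrX:40146634-40146883, minus strand: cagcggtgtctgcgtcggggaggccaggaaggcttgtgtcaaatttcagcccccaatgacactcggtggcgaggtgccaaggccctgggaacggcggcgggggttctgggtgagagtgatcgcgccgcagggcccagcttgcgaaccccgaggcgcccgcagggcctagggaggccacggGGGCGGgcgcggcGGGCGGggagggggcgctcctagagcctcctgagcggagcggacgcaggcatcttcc
BCORL1 inner start, chrX:129984136-129984385, plus strand: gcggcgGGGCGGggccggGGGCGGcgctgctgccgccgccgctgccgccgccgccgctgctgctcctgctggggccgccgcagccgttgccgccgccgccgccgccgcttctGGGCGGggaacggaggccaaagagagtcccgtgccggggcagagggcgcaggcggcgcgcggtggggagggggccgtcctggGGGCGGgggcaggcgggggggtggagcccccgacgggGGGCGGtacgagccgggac
BCL6 outer start, chr3:187745469-187745718, minus strand: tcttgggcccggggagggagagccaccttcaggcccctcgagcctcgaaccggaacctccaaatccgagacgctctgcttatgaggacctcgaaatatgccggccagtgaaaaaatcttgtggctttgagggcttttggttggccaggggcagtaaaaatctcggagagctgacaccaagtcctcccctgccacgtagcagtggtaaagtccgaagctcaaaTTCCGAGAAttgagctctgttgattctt
BCL6 inner start, chr3:187736502-187736751, minus strand: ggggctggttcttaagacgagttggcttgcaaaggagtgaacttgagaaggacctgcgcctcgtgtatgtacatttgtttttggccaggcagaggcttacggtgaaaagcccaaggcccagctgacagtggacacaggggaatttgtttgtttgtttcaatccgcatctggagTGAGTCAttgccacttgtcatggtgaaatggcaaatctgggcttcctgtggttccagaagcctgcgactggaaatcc

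The windows with TLE3 differed widely in base composition. The outer BCOR window held 5 CG dinucleotides and was 50.8% G or C, against 25 CG and 72.0% in the inner BCOR window. The inner BCORL1 window held 39 CG at 84.4% G or C, and the outer BCORL1 window 25 at 76.0%. The outer BCL6 window held 12 and the inner one 6, against a median of 16 over all protein-coding windows and of 23 over those on a siNS consensus region. TLE3 regions thus covered both a CG-poor and a CG-rich BCOR start, while the CG-poor inner BCL6 start had no peak in any library and the nearest region was 2302 bp away.

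In control cells the inner BCOR start lay wholly under TLE3 peaks. All 250 bases were under a peak of siNS 1 (score 21.5) and of siNS 2 (score 22.8). The outer BCL6 window was also covered for all 250 bases in both, and scored 51.5 in siNS 1 and 18.9 in siNS 2. At the outer BCOR window 15 bases lay under the siNS 1 peak and 184 under the siNS 2 peak, most of that region being inside the gene. At both BCORL1 start sites the libraries differed. There siNS 1 peaks covered 247 and 250 bases of the windows, and no siNS 2 peak reached them. Even so, siNS 2 peaks were part of the same merged regions. The outer of these start sites (chrX:129980979) lies inside the gene's span, which begins at chrX:129980313. Both siNS libraries had a peak over that 5′ end of the span. The score is the authors' own value per peak, with no stated definition, and is read here only by its place within a list, where rank 1 and the 100th percentile are the highest score.

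Exact matches on either strand were searched for 9 motifs. The forkhead sequence TGTTTAC, its variant TATTTAC and a further variant TGTTTGC were found in none of the 6 windows, and 6.81% of all protein-coding windows held at least 1 of them. Other forkhead variants were not searched. The outer BCL6 window held TTCCGAGAA, from 28 to 20 bases before the start. It matches TTCCNNGAA, a sequence shared by STAT factors and BCL6. That motif was found in 3.69% of all windows and 3.28% of those on a siNS consensus region. The inner BCL6 window held the AP-1 sequence TGACTCA, read on the other strand as TGAGTCA, against 3.45% of all windows. The outer BCOR window held the E-box CACGTG (7.37% of all and 9.47% of those on a siNS consensus region). The inner BCOR window and both BCORL1 windows held the GC box GGGCGG, 2, 4 and 5 times. It was held by 53.7% of all windows and by 74.0% of those on a siNS consensus region. Of the 4 GC boxes in the outer BCORL1 window, 2 overlapped each other by 1 base. The ETS sequence CCGGAAG and the GATA sequence AGATAAG were in none of the 6 windows, against 10.7% and 2.04% of all. Over windows on a siNS consensus region the shares were 15.8% and 0.827%. Matches are a description of these letters and do not show that a factor was bound.

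Across the 3 genes, control TLE3 peaks were many and siFOXA1 peaks few. At BCOR 34 regions had a peak in siNS 1 and 30 in siNS 2, against 1 in siFOXA1 1 and 1 in siFOXA1 2. At BCORL1 the counts were 7 and 6 in the siNS libraries, and no siFOXA1 peak was listed. At BCL6 they were 8 and 8 in siNS and 3 and 3 in siFOXA1. At each of the 3 genes the lower siNS count was above the higher siFOXA1 count. This was also so for 66.0% of the 16102 protein-coding genes with a region in any library. The group means for all 3 together were 46.5 ± 3.54 regions in siNS and 4 ± 0 in siFOXA1 (SD, n = 2 libraries each). The sequence under peaks was 36.8 ± 5.76 kb in siNS and 1.68 ± 0.12 kb in siFOXA1.

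**Figure D1:**
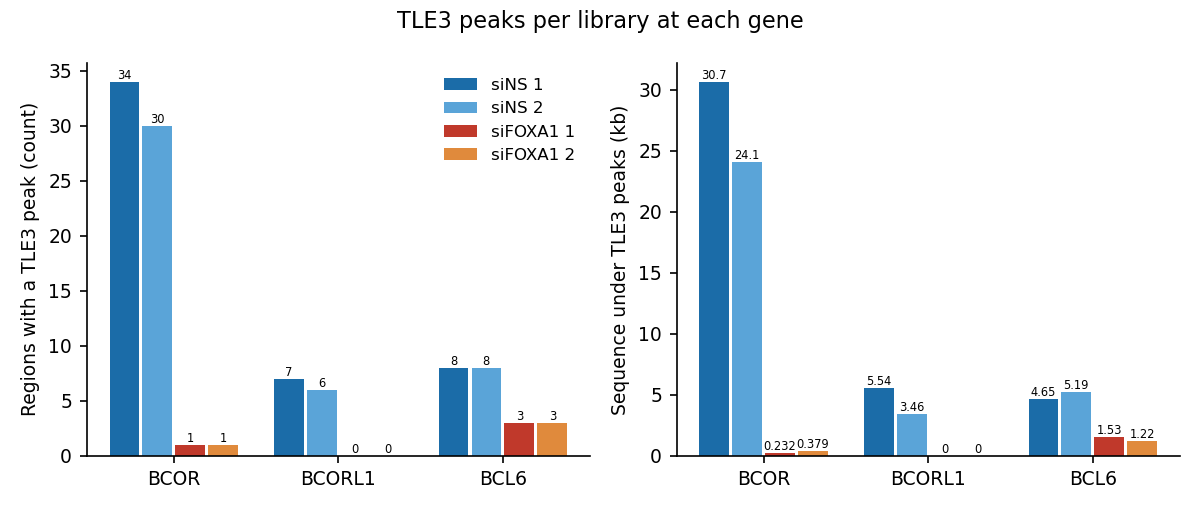
Number of regions with a TLE3 peak (left) and kilobases under peaks (right) at BCOR, BCORL1 and BCL6, with 1 bar per library and its value above it. At BCOR the siNS bars reach 34 and 30 regions and the siFOXA1 bars 1 each, while BCL6 keeps 3 regions in each siFOXA1 library.

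The siFOXA1 lists are shorter throughout, with 12249 and 13754 peaks outside the mitochondrial genome, against 45105 and 46586 in siNS. The lists give no read counts, so depth, yield of the immunoprecipitation and occupancy cannot be told apart. Peak lists also hold no measure of how far FOXA1 was silenced. The 3 genes held 38 siNS consensus regions, of which 35 had no siFOXA1 peak, beside 83.0% of 24967 siNS consensus regions genome-wide. The count was 25 of 26 at BCOR, 6 of 6 at BCORL1 and 4 of 6 at BCL6. On chromosome X, where BCOR and BCORL1 lie, 86.8% of 628 siNS consensus regions had no siFOXA1 peak. When every list was shortened to its 12249 highest scores, 9 siNS consensus regions were left at the 3 genes and 8 had no siFOXA1 peak, namely 7 at BCOR and 1 at BCORL1. The share over all such regions was then 67.7%.

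BCOR, the scaffold of PRC1.1, lies on the minus strand at chrX:40051246-40177277 and spans 126.0 kb. It has no protein-coding neighbour closer than ATP6AP2, 403.7 kb away on the side of its start, so its assigned stretch was long, at 326.0 kb. Its 26 siNS consensus regions were the joint second-highest count of any protein-coding gene, as many as 1 other gene had. Per 100 kb of assigned genome it had 7.97, against a median of 2.32 over the 12340 genes with at least 1 siNS consensus region, and 1908 genes had a higher density. BCOR ranks first by number of control-only regions (25), but not by density of siNS consensus regions. The density of control-only regions was not computed.

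TLE3 regions at BCOR were grouped, both within the gene and beyond its 3′ end. Inside the span lay 26 regions, of which 16 were siNS consensus regions, while 8 lay beyond the 3′ end (7 consensus) and 5 before the outer start (3 consensus). A stretch of 38.7 kb in the middle of the gene (chrX:40083232-40121940) held 16 regions, 12 of them with a siNS 1 peak and 13 with a siNS 2 peak. Regions also lay close together near the starts, with 5 in 8.42 kb at the outer start (chrX:40169044-40177461) and 5 in 12.4 kb at the inner one (chrX:40146319-40158739). Peaks covered 61.2% of the outer-start stretch in siNS 1 and 42.7% in siNS 2, and 51.1% and 30.9% of the inner-start stretch. Beyond the 3′ end, 4 regions lay in 15.7 kb and 3 in 9.32 kb. Peaks covered 41.2% of the latter in siNS 1 and 34.9% in siNS 2, against 28.1% and 25.9% of the mid-gene stretch. Between chrX:40015257 and 40083232, a gap of 68.0 kb that includes the 3′ end of the gene, no library had a peak. Over the whole span, peaks covered 17.7% in siNS 1, 13.7% in siNS 2, 0.184% in siFOXA1 1 and 0.301% in siFOXA1 2.

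**Figure D2:**
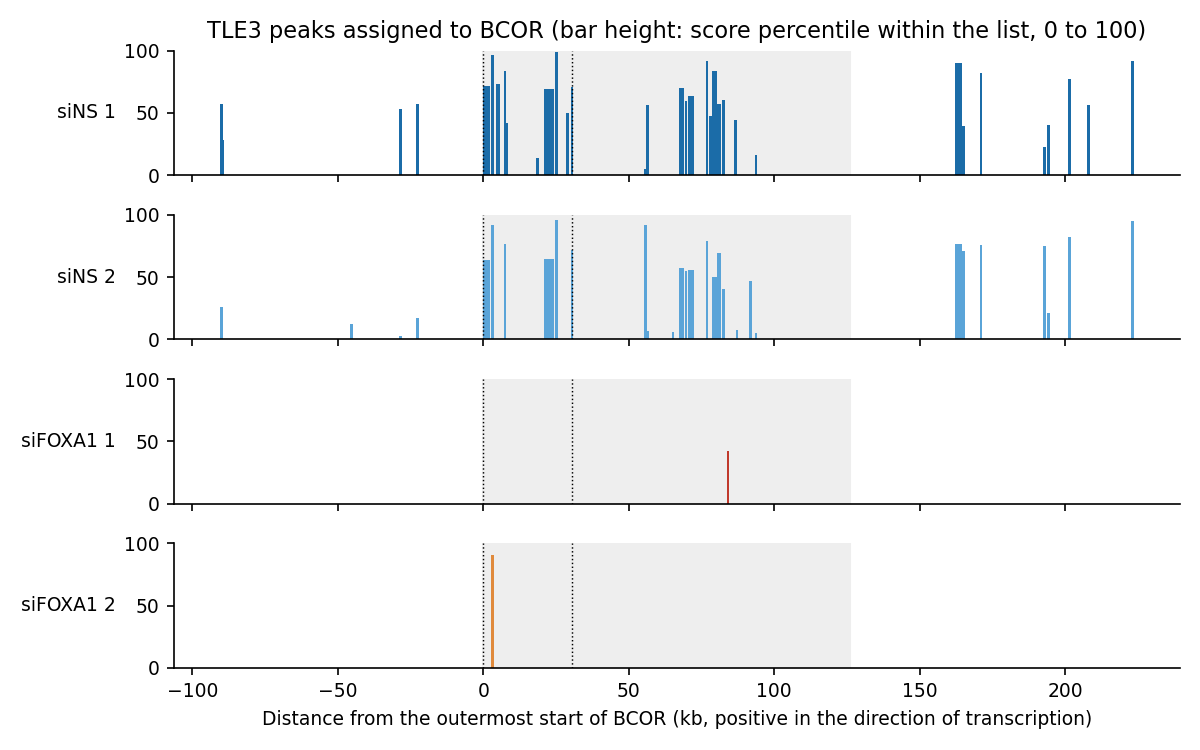
Merged TLE3 regions assigned to BCOR, with 1 row per library. The x axis is the distance in kb from the 5′ end of the gene in the direction of transcription, bar height is the percentile of the region's best score within that library's list (0 to 100), the shaded span is the gene, dotted lines are the 2 starts, and narrow regions are drawn wider than they are. The siNS rows show dense groups of bars at the starts and mid-gene and none at the 3′ end, and each siFOXA1 row has 1 bar, at different places.

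The strongest BCOR region lay 25.2 kb inside the gene (chrX:40151443-40152788), between the outer and the inner start. Its scores were 184 in siNS 1, rank 492 of 45105, and 101 in siNS 2, rank 1740 of 46586. Neither siFOXA1 library had a peak there. The next strongest, 3.24 kb into the gene (chrX:40173424-40174652), scored 109 in siNS 1 and 61.7 in siNS 2. This was the only siNS consensus region of BCOR with a siFOXA1 peak, found in siFOXA1 2 alone with a score of 33.9 (rank 1327 of 13754). Its siFOXA1 2 peak was 379 bp wide within a merged region of 1229 bp.

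The remaining strong BCOR regions lay far from the starts. The region at chrX:39953720-39954492, which is 96.8 kb beyond the 3′ end and close to the assignment limit, scored 64.0 in siNS 1 and 83.5 in siNS 2. Mid-gene, chrX:40100146-40100676 scored 62.3 and 29.6. Beyond the 3′ end, chrX:40012731-40015257 scored 58.0 and 27.1 and was 2527 bp wide. None of these 3 had a siFOXA1 peak. The widest BCOR region, chrX:40152868-40156340 at 3473 bp, was a single peak in siNS 1 and 3 peaks in siNS 2.

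A single siFOXA1 peak at BCOR had no control counterpart. It was a 232 bp peak of siFOXA1 1 (chrX:40093089-40093320, score 8.32, rank 7055 of 12249), inside the mid-gene group. The siFOXA1 peaks of BCOR therefore came from different libraries at different places, and no BCOR region had a peak of both siFOXA1 libraries. Over the genome 19.4% of protein-coding genes had a siFOXA1 consensus region, meaning a peak of both siFOXA1 libraries, and BCOR and BCORL1 were not among them. At the outer start, the region over the start itself (chrX:40174900-40177461) scored 22.2 in siNS 1 and 17.2 in siNS 2, with no siFOXA1 peak. It is the only BCOR region within 1 kb of an end of the gene.

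The BCOR count depends on how far from the gene regions are assigned. The nearest regions beyond the limit were a peak of 1 siNS library 116.4 kb past the 3′ end and another 210.5 kb before the outer start. Between 100 kb from BCOR and 100 kb from ATP6AP2 lay 7 regions given to no gene, including 4 siNS consensus regions of which 3 had a siFOXA1 peak. Inside the gene and over 1 kb from its ends, 14 of 15 siNS consensus regions of BCOR lacked a siFOXA1 peak, beside 76.7% of 8146 such regions in all genes. Several regions also lay in long noncoding RNA genes, namely chrX:40104735-40106933 in LOC107985687, chrX:40011885-40012479 in LINC03053 and a pair of regions between chrX:40266579 and 40267737 in LINC03099.

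The genes whose counts were most like those of BCOR were SHANK2, TBC1D22A, HDAC4, LMX1B and GNG7, by Euclidean distance of log2(regions + 1) over the 4 libraries. SHANK2 was nearest, at a distance of 0.23, with 40 and 30 regions in siNS and 1 and 1 in siFOXA1. The other distances were 0.83 for TBC1D22A, 0.87 for HDAC4, 0.89 for LMX1B and 0.93 for GNG7. SHANK2 has 888.0 kb of assigned genome and LMX1B 192.1 kb, so likeness in count does not mean likeness in density. SHANK2 had 15 siNS consensus regions where BCOR had 26, so fewer of its siNS peaks were shared by both control libraries.

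BCORL1, the paralogue, lies on the plus strand at chrX:129980313-130058071 and had TLE3 regions in control cells only. Its 7 regions included 6 siNS consensus regions and 1 with a siNS 1 peak alone. A group of 4 in 4.78 kb lay at its 2 starts (chrX:129980135-129984914). Peaks covered 65.1% of that stretch in siNS 1 and 26.3% in siNS 2. No region lay in the following 75.2 kb, which is nearly all of the gene.

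The strongest BCORL1 region was outside the gene, 18458 bp before its span (chrX:129961209-129961855), and scored 39.4 in siNS 1 and 28.6 in siNS 2. Between the starts, chrX:129981951-129983227 scored 27.5 and 20.7. At the inner start, chrX:129984072-129984914 scored 24.0 and 7.25. The region over the 5′ end (chrX:129980135-129980975), which is the only one within 1 kb of a gene end, scored 8.48 and 6.86. Upstream, chrX:129957087-129957755 scored 22.1 and 6.55. The region 1994 bp past the 3′ end (chrX:130060065-130061228, scores 27.5 and 16.0) lies in the 5.88 kb between BCORL1 and ELF4, and distance alone gives it to BCORL1. All 6 consensus regions ranked higher in siNS 1 than in siNS 2, with median score percentiles of 74.9 and 45.0, against medians of 71.8 and 65.4 over all siNS consensus regions.

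BCL6, the repressor itself, lies on the minus strand at chr3:187721377-187745468 and had siFOXA1 peaks in regions assigned to it upstream, while the upstream regions assigned to BCOR and BCORL1 had none. Inside its span lay 6 regions, 4 of them siNS consensus regions, and no siFOXA1 peak. Before its outer start lay 6 more, of which 4 had a siFOXA1 peak. The stretch between BCL6 and LPP, the next gene, is 407.6 kb long and held 16 regions. Of these 3 had a siNS 1 peak, 10 a siNS 2 peak, 8 a siFOXA1 1 peak and 7 a siFOXA1 2 peak. The groups overlapped in this stretch, where siNS 1 had the fewest and siNS 2 the most. The stretch before BCOR, out to ATP6AP2, held 18 regions, with 12 and 15 in the siNS libraries and 4 in each siFOXA1 library, all of the latter farther than 100 kb from BCOR.

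**Figure D3:**
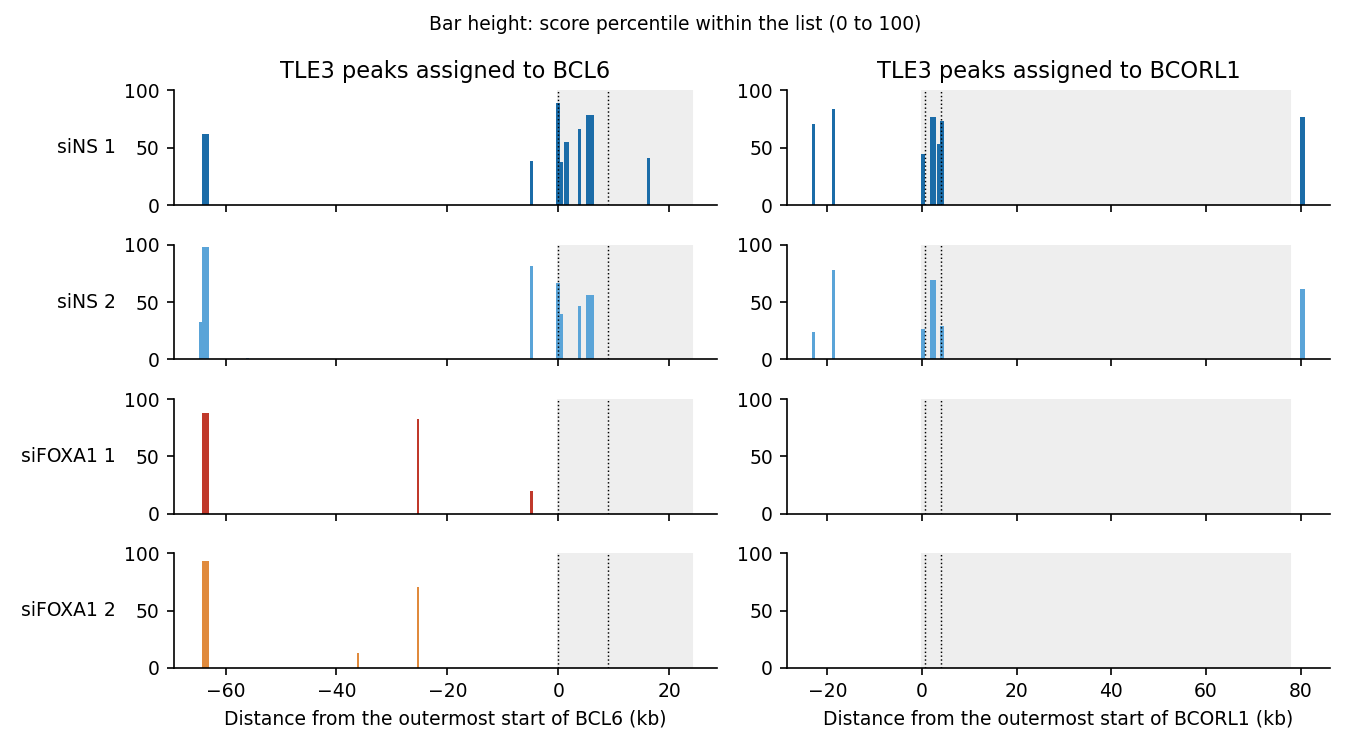
Merged TLE3 regions assigned to BCL6 (left) and BCORL1 (right), with 1 row per library. Axes, shading and dotted lines are as in the map of BCOR: kb from the 5′ end of the gene in the direction of transcription, and score percentile within the list from 0 to 100. In BCL6 the siNS bars gather at the outer start and the siFOXA1 bars all lie upstream of it, while the siFOXA1 rows of BCORL1 are empty.

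The control regions of BCL6 gathered at its outer start. The region over the start (chr3:187745173-187745903) scored 51.5 in siNS 1, rank 5041, and 18.9 in siNS 2, rank 15539. A second region 351 bp inside the gene (chr3:187744591-187745117) scored 7.18 and 9.08. These are the 2 BCL6 regions within 1 kb of a gene end, and both overlap BCL6-AS1, a long noncoding RNA gene, within their length. Further in, chr3:187739053-187740534 scored 30.1 and 13.9, and chr3:187741304-187741986 scored 17.9 and 10.8. None of these 4 had a siFOXA1 peak. With the BCOR and BCORL1 regions over their 5′ ends, 4 of 4 member regions within 1 kb of a gene end had none, beside 93.8% of 10570 siNS consensus regions so placed. No member region lay within 1 kb of a 3′ end.

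Upstream of BCL6, 1 region had a peak in all 4 libraries. It lies 62944 bp before the gene (chr3:187808412-187809699) and scored 15.5 in siNS 1, 136 in siNS 2, 26.7 in siFOXA1 1 and 40.8 in siFOXA1 2. Its ranks were 16964 and 1010 in the siNS lists and 1507 and 975 in the shorter siFOXA1 lists. As percentiles within each list these were 62.4 in siNS 1, 97.8 in siNS 2, 87.7 in siFOXA1 1 and 92.9 in siFOXA1 2. Only siNS 2 and siFOXA1 2 thus place it above their 90th percentile. It was the strongest BCL6 region by mean siNS percentile (80.1), and no other region of the 3 genes had a peak in every library.

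A region 4592 bp before BCL6 (chr3:187750060-187750537) was a siNS consensus region with a peak in siFOXA1 1 only. It scored 7.49 in siNS 1, 33.8 in siNS 2 and 5.64 in siFOXA1 1, where it ranked 9829 of 12249. Further out, 25083 bp before the gene, chr3:187770551-187771014 had no siNS peak and scored 20.8 in siFOXA1 1 and 15.6 in siFOXA1 2. It was the only siFOXA1-only region of the 3 genes. Of 8205 siFOXA1 consensus regions 40.0% had no siNS peak, and BCL6 had 2 of them, 1 with siNS peaks and 1 without. The last was a siFOXA1 2 peak 35978 bp before the gene (chr3:187781446-187781708, score 5.37). Outside genes and over 1 kb from an end, 73.1% of 6251 siNS consensus regions had no siFOXA1 peak. Those 6251 include regions over 100 kb from any protein-coding gene, whereas all member regions lie within 100 kb of their gene. The counts without a siFOXA1 peak were 10 of 10 at BCOR, 3 of 3 at BCORL1 and 0 of 2 at BCL6.

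The 38 siNS consensus regions had a median width of 818 bp, against 838 bp over all siNS consensus regions. Peaks over 1 kb made up 25.0% of BCOR peaks in siNS 1 (9 of 36) and 22.9% in siNS 2 (8 of 35), against 16.1% and 12.4% of those lists. At BCORL1 they were 2 of 7 and 0 of 8 peaks, and at BCL6 1 of 8 in each siNS library. The median over regions of the mean score percentile was 63.6 at BCOR, 60.0 at BCORL1 and 63.8 at BCL6, against 66.8 over all. A mean percentile over 90 was reached by 3 regions, all at BCOR, which is 7.89% of the 38 and 13.6% of all.

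Across all regions, stronger siNS regions more often had a siFOXA1 peak. With a mean percentile over 90, 48.9% of all 3395 siNS consensus regions had no siFOXA1 peak, and 2 of 3 member regions had none. Between 50 and 90 the share was 85.5%, and 22 of 24 member regions had none. Under 50 it was 94.9%, and 11 of 11 had none. Only 3 of the 38 fall in the strongest class, so the share there rests on few regions.

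Score percentiles of the same region differed between the siNS libraries. Across the 38 siNS consensus regions the Spearman correlation of score percentiles between siNS 1 and siNS 2 was 0.465, against 0.650 over all 24967, as a description over regions that share their libraries. It was 0.597 over the 26 BCOR regions, 0.886 over 6 at BCORL1 and 0.143 over 6 at BCL6. The widest disagreement was at chrX:40121136-40121940 in BCOR, which scored 3.88 in siNS 1 (rank 42912) and 60.7 in siNS 2 (rank 3859). Both BCL6 regions with a siFOXA1 peak ranked higher in siNS 2 than in siNS 1, whereas 28 of the 38, and 17037 of all 24967, ranked higher in siNS 1. At BCOR 12 more regions had a peak of 1 siNS library only, 1 at BCORL1 and 4 at BCL6.

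**Figure D4:**
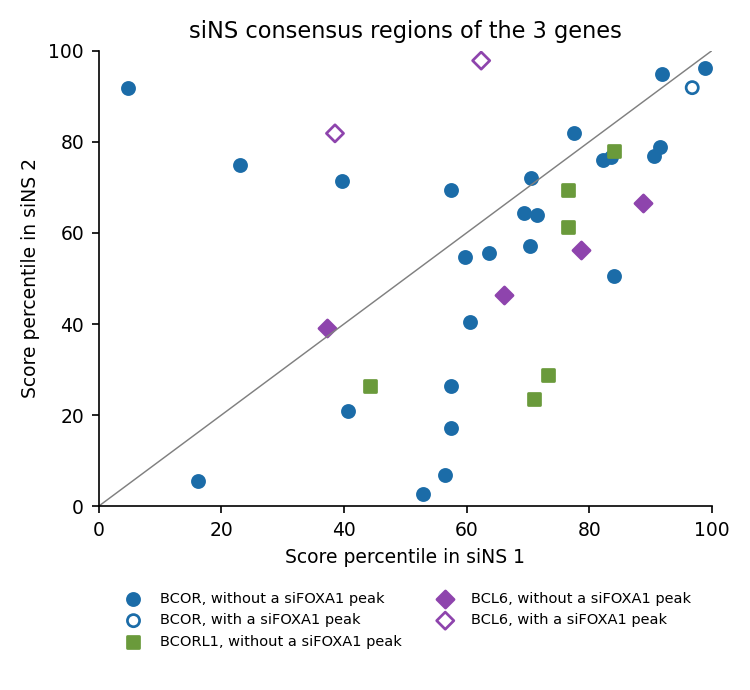
Score percentile of each of the 38 siNS consensus regions in siNS 1 (x axis) and siNS 2 (y axis), each from 0 to 100, with 1 point per region, filled where no siFOXA1 peak overlaps and open where 1 does. The line marks equal percentiles. The open BCOR point is near the top right, and both open BCL6 points lie above the line.

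Genes of the complexes in which BCOR and BCL6 act also had control TLE3 regions. All 10 genes of a PRC1.1 list, all 12 reported BCL6 corepressor partners and all 10 of a list of BTB zinc finger relatives of BCL6 had a siNS consensus region, beside 61.6% of 20037 protein-coding genes. All 3 lists were chosen with earlier results of these data known, and the PRC1.1 list includes BCORL1, which was chosen by its peaks. The contrast with all protein-coding genes is therefore a description and was not tested. In the PRC1.1 list 34 of 38 siNS consensus regions had no siFOXA1 peak. RYBP, a RING1-binding subunit, had 10 with 6 lacking one. CBX8, a chromobox gene, had 7 and KDM2B, the subunit that takes PRC1.1 to unmethylated CG sequence, had 6, all without a siFOXA1 peak. BCORL1 adds its 6 to this list. The median was 2.5 regions per gene, against 1 over all protein-coding genes.

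The corepressor partners of BCL6 had 45 siNS consensus regions, of which 39 had no siFOXA1 peak. HDAC4 had 15 with 13 lacking one, HDAC7 5 with 3 and HDAC5 4 with 3, all class IIa deacetylase genes. NCOR1, a nuclear receptor corepressor gene, had 4, all without a siFOXA1 peak. The BTB zinc finger genes had 26, of which 15 had none. ZBTB16, which encodes PLZF, had 7 with 4 lacking a siFOXA1 peak, and PATZ1 4 with 2. ZBTB7A had 3 with 1, and all 3 of ZBTB7B, the gene of the ThPOK factor, had a siFOXA1 peak. The share without a siFOXA1 peak was 89.5% for PRC1.1, 86.7% for the BCL6 partners and 57.7% for the BTB genes, against 83.9% over regions assigned to any protein-coding gene. The differences between lists were not tested.

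**Figure D5:**
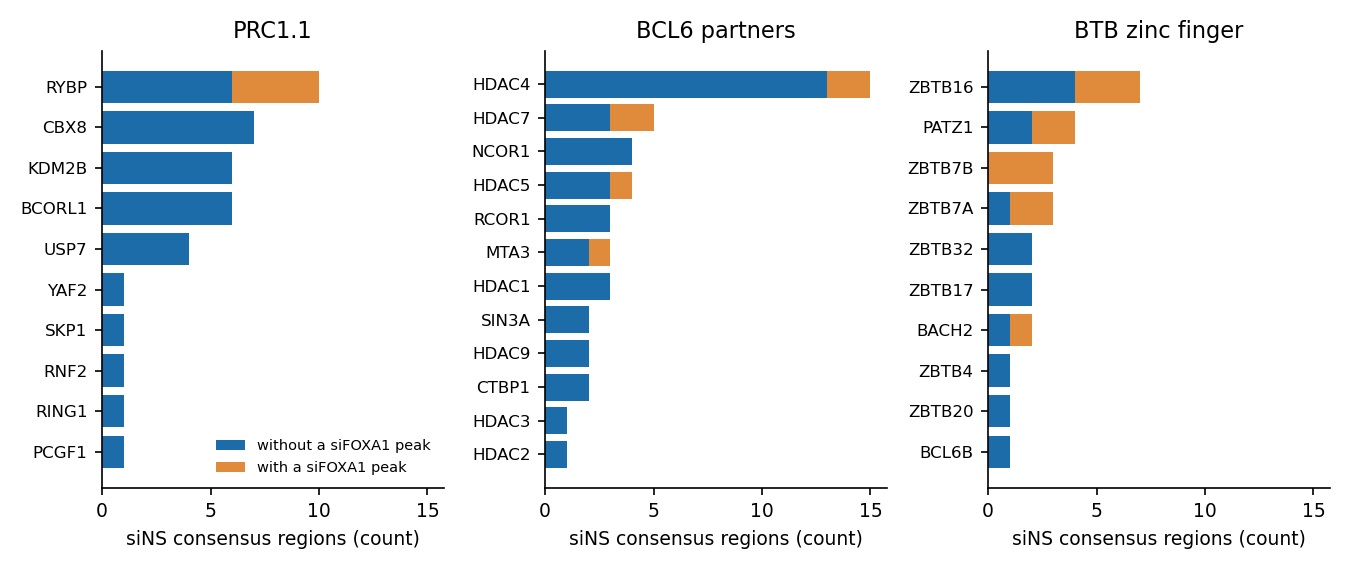
siNS consensus regions per gene (x axis, count) for the PRC1.1 list, the BCL6 corepressor partners and the BTB zinc finger relatives, split into those without a siFOXA1 peak (blue) and those with one (orange). HDAC4 and RYBP have the longest bars with 15 and 10, and the ZBTB7B bar is orange throughout.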

How the data were processed

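Per the submitters' processing notes, the authors used Trim Galore, BWA 0.7.5a, SAMtools and MACS2 on hg38. Their settings are not stated in the labels. For each ChIP library a headerless peak list was deposited, with chromosome, start, end, name and a score per peak. The deposited score has no stated definition and was used only as a rank within its list. A percentile is the share of a list with a score at or below that of a peak. Mitochondrial peaks (3 to 9 per list) were left out. Positions are 1-based.

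Groups come from the sample titles. The siFOXA1 2 list has a replicate number in its name that differs from the title, which was followed. Peaks sharing at least 1 bp were merged over the 4 lists, and regions went to the gene whose span they overlap (of overlapping genes, that with the nearer end) or to the nearest within 100 kb. Genes (20037 protein-coding) and promoter sequences are from RefSeq GRCh38.p14. That table gives no exons, introns or untranslated regions. A consensus region here is a merged region of all 4 lists with a peak of both libraries of a group. No test was run, since the peak lists chose the genes, and 2 against 2 libraries give no exact permutation p under 0.05.

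The members and the gene lists were chosen with earlier results of these data known. Named regions are the 5 strongest siNS consensus regions per gene by mean siNS percentile, those with a siFOXA1 peak and those within 1 kb of a gene end. Other BCOR regions named for width, noncoding genes or disagreement were chosen after their values were seen. Named pathway genes have the 3 highest counts of their list, ties included, and 1 gene of the planned lists is not reported here and is left out of the list counts. The code recovered 3000 of 3000 simulated regions. These lay far apart, each with its own gene nearby, so dense peaks, overlapping genes and the 100 kb limit were not tried. On the real lists its 72272 merged regions equalled those of bedtools 2.31.1. Python 3.11.15, scipy 1.17.1 and matplotlib 3.10.9 were used. Alternatives were a larger overlap, a score threshold, lists of equal length, widened peaks, other assignment rules, peak width as strength and leaving out each library.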

Additional observations from a re-analysis of the deposited data

How the results depend on the processing

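Of 59 alternative values, 20 moved by more than 1.5 times (counts) or by more than the SD between the siNS libraries (median percentiles). The control-only regions were 25 at BCOR, 6 at BCORL1 and 4 at BCL6. Keeping only peaks in the upper part of each list, from its median score up, these were 15, 3 and 2, and the siNS consensus regions of the 3 genes fell from 38 to 22. With lists of equal length they were 7, 1 and 0, with 9 consensus regions, of which 1 and not 3 had a siFOXA1 peak. With regions no farther than 10 kb from a gene, BCOR had 15 and the 3 genes 25 consensus regions. Inside gene spans only, BCOR had 15, BCORL1 3, and the 3 genes 23 consensus regions with 1 kept. Fewer regions qualify by construction in each of these. A larger overlap and widened peaks changed no count by more than 1.5 times. Without siNS 1 or siNS 2, BCOR had 34 or 35 control-only regions, and without siFOXA1 1 or siFOXA1 2 it had 25 or 26. The share of members' consensus regions without a siFOXA1 peak ranged from 88.9 to 95.7% over these settings, and over all regions from 67.7 to 90.4%. By peak width the median percentile was 71.2 at BCOR and 59.9 at BCL6. With 1 siNS library alone it was 66.5 to 66.9 at BCOR and 61.5 to 64.3 at BCL6, and 45.0 to 74.9 at BCORL1. The SD between the siNS libraries rests on 2 medians per gene. Small shifts at BCOR therefore counted as moved, and larger ones at BCORL1 did not. No paired analysis was possible because no result comes from a test. The lists hold no read counts, so a missing peak may reflect depth, which was not tested.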
